A study of Mus musculus with 6 samples.

Results

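The genes described here are the RUNX transcription factor genes Runx1, Runx2 and Runx3, the gene of their DNA-binding partner, Cbfb, and the ETO family corepressor genes Cbfa2t2 (Mtgr1), Cbfa2t3 (Eto2) and Runx1t1 (Eto). They were taken by symbol from the deposited table, in which each of the 7 had 1 row among 14005 genes. All 7 passed the filter on low values (at least 0.5 CPM, read counts scaled to a common library total, in 3 or more libraries), as did 13991 genes in all. The libraries hold RNA of FLK1+ mesoderm isolated from day 3.5 embryoid bodies (EBs), which were grown from J1 wild-type (WT) mouse embryonic stem (ES) cells or from an Scl-/- ES line that lacks the haematopoietic transcription factor SCL (TAL1). Each genotype had 3 libraries, and libraries with the same replicate number were compared as pairs beside the unpaired comparison. The labels enter the strain as C57Bl/6 X Sv129 for 3 libraries and with Sv130, Sv131 or Sv132 in its place for the others. Each genotype was represented by 1 ES line, so that the loss of SCL and other differences between the lines cannot be told apart.

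RUNX proteins bind DNA through the Runt domain, and CBFB, which does not bind DNA itself, joins them and strengthens that binding. RUNX1 is required for blood cells to emerge from haemogenic endothelium, RUNX2 for bone formation, and RUNX3 acts in T cells and sensory neurons. The ETO proteins do not bind DNA by sequence either. They recruit NCOR, SIN3 and histone deacetylases to partners such as SCL complexes, and ETO was first met as the fusion partner of RUNX1 in the leukaemia translocation t(8;21).

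Reads per library on the listed genes, worked out from what 1 read was worth in CPM, ran from 38623641 to 47621120, and 3 reads on a gene corresponded to between 0.0615 and 0.0784 CPM. The targeted gene, Tal1, had 182 to 306 CPM in WT and 5.68 to 9.35 CPM in Scl-/- libraries. Kdr, which encodes the sort marker FLK1, had 868, 832 and 867 CPM over WT replicates 1 to 3, against 724, 777 and 810 CPM over Scl-/- replicates 1 to 3. The Kdr levels of the groups did not overlap, but the difference did not pass the test (log2FC -0.15, SE 0.09, limma adjusted p = 0.456, blocked 0.125), where log2FC is the log2 fold change of Scl-/- against WT, SE its standard error and the blocked value that of a fit with replicate number as a block. The libraries of a group came from separate differentiations of the same line, so p-values without the block measure the spread between differentiations. Blocked p-values measure the spread of the differences within same-numbered pairs.

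Cbfa2t3 and Runx1 are the members with the largest changes below, and the start regions of their transcripts are shown here because both RNAs fell. Each RefSeq window holds 250 bases before and 50 bases after a transcript start, and each of the 4 was found once, base for base, on the minus strand of mm9. Capitals mark E-boxes (CANNTG, the motif of SCL and its E protein partners), GATA motifs (NGATAN with A or T first and A or G last) and RUNX motifs (TGTGGT), read on both strands. No marked motifs overlap in these 4 windows. Gene-level CPM do not tell which start was used.
Cbfa2t3 upstream start, chr8:125222960-125223259: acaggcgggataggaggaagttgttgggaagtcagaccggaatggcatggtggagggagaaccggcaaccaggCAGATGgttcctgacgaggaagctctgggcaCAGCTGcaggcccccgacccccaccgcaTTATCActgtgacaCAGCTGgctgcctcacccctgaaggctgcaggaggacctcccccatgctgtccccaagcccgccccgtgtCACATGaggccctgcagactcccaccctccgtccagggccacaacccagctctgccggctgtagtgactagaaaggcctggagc
Cbfa2t3 downstream start, chr8:125202026-125202325: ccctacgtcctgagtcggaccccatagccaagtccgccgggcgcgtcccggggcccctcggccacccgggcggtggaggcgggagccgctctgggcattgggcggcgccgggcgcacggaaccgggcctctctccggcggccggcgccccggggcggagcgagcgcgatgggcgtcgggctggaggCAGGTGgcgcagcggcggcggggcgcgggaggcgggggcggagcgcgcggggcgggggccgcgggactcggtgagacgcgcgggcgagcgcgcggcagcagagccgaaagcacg
Runx1 distal start, chr16:92826270-92826569: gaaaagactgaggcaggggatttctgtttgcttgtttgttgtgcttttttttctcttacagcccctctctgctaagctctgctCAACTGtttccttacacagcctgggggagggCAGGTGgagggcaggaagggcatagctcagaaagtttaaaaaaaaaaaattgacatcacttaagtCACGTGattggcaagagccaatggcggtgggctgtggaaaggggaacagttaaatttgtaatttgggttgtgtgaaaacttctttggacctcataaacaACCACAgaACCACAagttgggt
Runx1 proximal start, chr16:92697525-92697824: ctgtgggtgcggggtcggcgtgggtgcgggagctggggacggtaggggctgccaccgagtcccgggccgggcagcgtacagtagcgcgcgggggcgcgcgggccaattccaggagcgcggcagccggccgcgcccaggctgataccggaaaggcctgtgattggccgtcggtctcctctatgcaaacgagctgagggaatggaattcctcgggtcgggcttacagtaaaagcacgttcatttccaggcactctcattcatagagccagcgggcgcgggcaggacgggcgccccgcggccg

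The upstream Cbfa2t3 window held 4 E-boxes and 1 GATA motif, and the downstream window 1 E-box. The distal Runx1 window held 3 E-boxes and 2 RUNX motifs, and the proximal window no match to any of the 3 motif kinds. RefSeq windows were given for 6 of the 7 genes, 9 windows in all, and none for Runx1t1. The windows of Cbfb and Cbfa2t2 held no match. The Runx2 window held 2 E-boxes and 3 RUNX motifs. The upstream Runx3 window held 1 E-box and 2 RUNX motifs, and the downstream window 1 E-box. Matches were thus found also in genes that were not called. Over all 32851 windows of the RefSeq table, 72.3% held an E-box, 29.8% a GATA motif and 16.8% a RUNX motif. A match is a string of letters and not a measured site.

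Of the 7 genes, Cbfa2t3 and Runx1 fell in Scl-/- cells, and the other 5 did not pass the test without the replicate block. A gene was called when its adjusted p (Benjamini-Hochberg over all tested genes) was under 0.05 and its absolute log2FC above 0.48. The log2FC is on the log2(CPM + 0.5) scale, which understates changes of low genes. The 2 members called stand beside 2.36% of all tested genes called, and both were lower, as were 1.57% of all tested genes. With the replicate number as a block, Runx1t1 was called as well, which made 3 members, all lower, beside 12.6% of tested genes called and 6.6% called lower. The groups did not overlap for 3 members, the same Cbfa2t3, Runx1 and Runx1t1, and for 21.6% of all tested genes. The median log2FC of the members was -0.14, and that of all tested genes was 0.009. In bulk RNA, fewer cells that express a gene and less RNA per cell cannot be told apart.

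**Figure D1:**
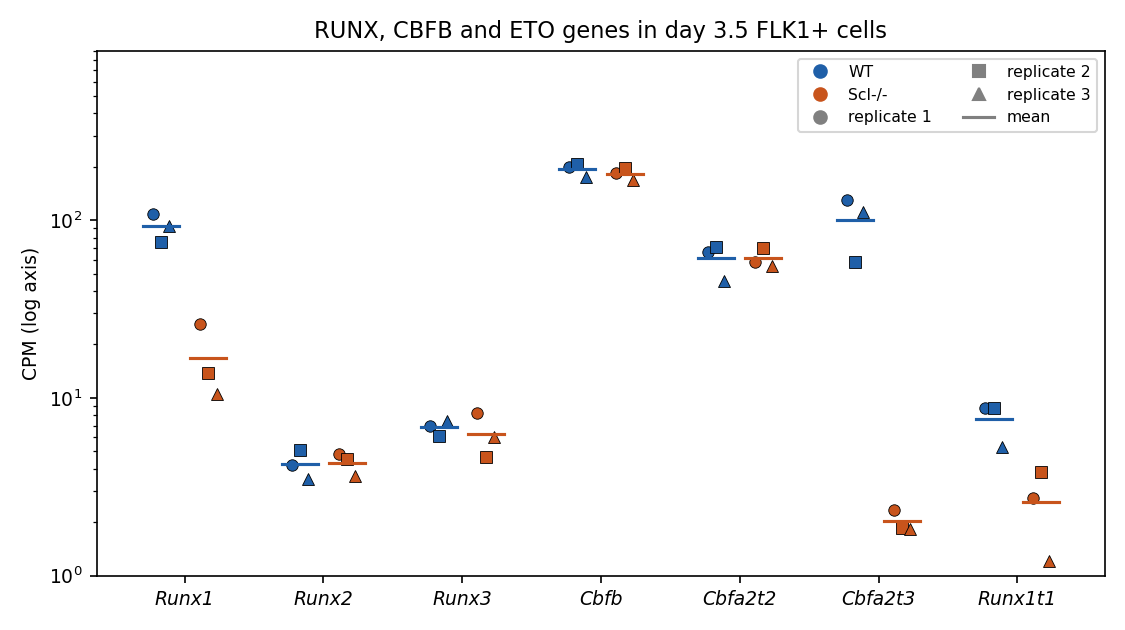
CPM (log axis) of each gene in each library, with WT in blue, Scl-/- in orange, a marker shape for each replicate number and bars for the group means. Cbfa2t3, Runx1 and Runx1t1 are separated by genotype, while the points of the other 4 genes overlap.

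Among the RUNX genes, Runx1 (Ensembl ENSMUSG00000022952), on the minus strand of chromosome 16 from 92601712 to 92826311 of mm9, measured 108.8, 76.0 and 93.0 CPM over WT replicates 1 to 3 against 26.1, 13.8 and 10.5 CPM over Scl-/- replicates 1 to 3. The lowest WT library stood well above the highest Scl-/- library. Scl-/- cells had 18.1% of the WT mean, a 5.52-fold difference, with a log2FC of -2.52 (SE 0.31, limma adjusted p = 0.0102, blocked 9.2e-05). The call was lost without WT replicate 1, at -2.39 (limma adjusted p = 0.0876), and without WT replicate 3, at -2.51 (limma adjusted p = 0.0508). Within the pairs of replicates 1, 2 and 3 the log2 difference was -2.04, -2.42 and -3.09. It ranked 46th lowest among the 13991 values of log2FC.

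Runx2 (ENSMUSG00000039153), on chromosome 17 from 44632936 to 44951746, was low in every library, with 4.21, 5.12 and 3.50 CPM in WT against 4.82, 4.52 and 3.63 CPM over Scl-/- replicates 1 to 3. These levels rest on 144 to 235 reads a library, and the groups overlapped. The log2FC was 0.02, with a 95% interval from -0.44 to 0.48 (limma adjusted p = 0.986, blocked 0.941). The mm9 annotation holds a second gene model named Runx2 (ENSMUSG00000092206), whose 2532 exonic bases all lie within the 8837 exonic bases of the first. Its own row held 2.99 to 4.44 CPM, and how reads shared by both models were counted is not given in the sources used here, so the level of Runx2 is uncertain.

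Runx3 (ENSMUSG00000070691), on chromosome 4 from 134676567 to 134733905, had 6.97, 6.12 and 7.43 CPM in WT against 8.20, 4.64 and 6.03 CPM over Scl-/- replicates 1 to 3. The Scl-/- libraries lay on both sides of the WT libraries. The log2FC was -0.14, with a 95% interval from -0.65 to 0.37 (limma adjusted p = 0.842, blocked 0.545). A change past the threshold of 0.48 downwards lies inside this interval.

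Cbfb (ENSMUSG00000031885), on chromosome 8 from 107694574 to 107741886, was the most abundant of the 7. It had 199, 206 and 175 CPM in WT against 185, 197 and 168 CPM over Scl-/- replicates 1 to 3. Each Scl-/- library lay slightly below the WT library of its number, by log2 differences of -0.11, -0.07 and -0.06, while the groups overlapped. The log2FC was -0.08, with a 95% interval from -0.32 to 0.17 (limma adjusted p = 0.812, blocked 0.364), so that the interval stays within the threshold of 0.48 in both directions.

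Among the ETO genes, Cbfa2t3 (ENSMUSG00000006362), on the minus strand of chromosome 8 from 125152639 to 125223009, fell from 130.8, 58.0 and 111.7 CPM to 2.36, 1.86 and 1.84 CPM. The WT libraries rest on 5214, 2219 and 4599 reads and the Scl-/- libraries on 115, 77 and 81 reads, so the low level was still well above 3 reads. Scl-/- cells had 2.02% of the WT mean, a 49.6-fold difference, and the log2FC of -5.25 (SE 0.29, limma adjusted p = 6.7e-04, blocked 6.0e-06) was the 3rd lowest of all tested genes. WT replicate 2 had the lowest Cbfa2t3 level of the WT libraries, as it had for Tal1 and Runx1, and its pair showed the smallest difference (-4.63, against -5.52 and -5.58 for replicates 1 and 3).

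Runx1t1 (ENSMUSG00000006586), on chromosome 4 from 13670583 to 13820796, had 8.81, 8.83 and 5.27 CPM in WT against 2.75, 3.84 and 1.20 CPM over Scl-/- replicates 1 to 3, from 53 to 351 reads. Replicate 3 was lowest in both groups, and the groups did not overlap. The log2FC of -1.46 (SE 0.37, 95% interval from -2.32 to -0.60) missed the threshold without the block (limma adjusted p = 0.0991) and passed it with the block (7.9e-04). The pairs differed by -1.52, -1.10 and -1.76.

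Cbfa2t2 (ENSMUSG00000038533), on chromosome 2 from 154262217 to 154365092, had 66.3, 71.2 and 45.4 CPM in WT against 58.4, 69.7 and 55.0 CPM over Scl-/- replicates 1 to 3. Its groups overlapped and its pair differences of -0.18, -0.03 and 0.27 had mixed signs. The log2FC was 0.02, with a 95% interval from -0.41 to 0.45 (limma adjusted p = 0.984, blocked 0.903). A change past 0.48 in either direction lies outside that interval.

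**Figure D2:**
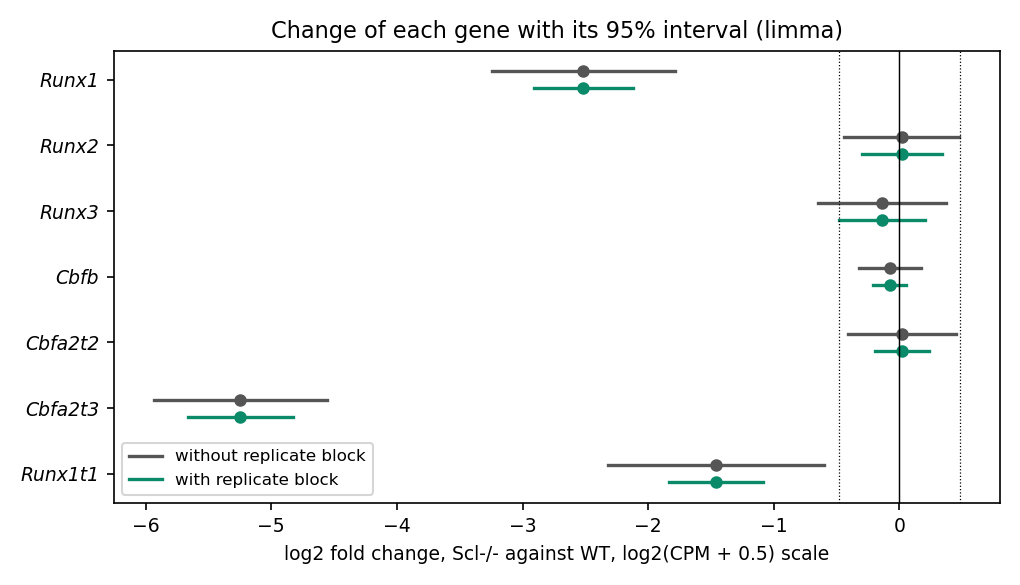
Log2 fold change (Scl-/- against WT, log2(CPM + 0.5) scale) of each gene with its 95% interval from limma, without the replicate block in grey and with it in green, and dotted lines at the threshold of 0.48 in each direction. The intervals of Cbfa2t3, Runx1 and Runx1t1 lie below the threshold, and those of the other 4 genes span 0.

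Members of each family were also set against each other within a library, to ask whether they changed unequally. The log2 ratio of Cbfa2t3 to Cbfa2t2 was 0.98, -0.29 and 1.29 in WT and -4.36, -4.89 and -4.57 in Scl-/- replicates 1 to 3, a difference of -5.27 (SE 0.51). The log2 ratio of Cbfa2t3 to Runx1t1 differed by -3.78 (SE 0.62), and that of Runx1t1 to Cbfa2t2 by -1.48 (SE 0.32). The log2 ratio of Runx1 differed by -2.54 (SE 0.39) against Runx2, by -2.38 (SE 0.29) against Runx3 and by -2.44 (SE 0.40) against its partner Cbfb. In these 6 of the 7 ratios compared, the groups did not overlap, and each had an exact two-sided permutation p of 0.10, the smallest that 3 against 3 libraries allow (adjusted over the 7 ratios, 0.117), so that this design could not pass 0.05. The ratio of Runx2 to Runx3 differed by 0.16 (SE 0.31, exact permutation p = 0.60), and its groups overlapped.

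Levels of different genes were compared as CPM per kilobase of merged exons (CPM/kb). Runx2 entered without its second gene model, so its place in the orders below is uncertain. In WT cells the order was Cbfb at 66.5 ± 5.69 CPM/kb (SD, n = 3), Cbfa2t3 at 21.0 ± 7.90, Runx1 at 11.9 ± 2.11, Cbfa2t2 at 7.05 ± 1.58, Runx3 at 1.37 ± 0.133, Runx1t1 at 0.959 ± 0.258 and Runx2 at 0.484 ± 0.0922. The ranges of Cbfa2t3 and Runx1 overlapped over the WT libraries, and those of the other neighbours in this order did not. In Scl-/- cells the order was Cbfb at 62.9 ± 4.91 CPM/kb (SD, n = 3), Cbfa2t2 at 7.05 ± 0.893, Runx1 at 2.15 ± 1.05, Runx3 at 1.26 ± 0.358, Runx2 at 0.489 ± 0.070, Cbfa2t3 at 0.423 ± 0.0615 and Runx1t1 at 0.326 ± 0.167. Here Runx1 overlapped Runx3, Runx2 overlapped Cbfa2t3, and Cbfa2t3 overlapped Runx1t1.

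Runx1 made up 88.2%, 84.4% and 86.4% of the summed RUNX CPM/kb in WT and 60.5%, 55.1% and 45.4% in Scl-/- replicates 1 to 3. With the second Runx2 model left out, the rest was mostly Runx3. The Runx3 share was 10.0% ± 1.08 in WT and 33.1% ± 6.59 in Scl-/- cells (SD, n = 3), while its level did not pass the test. As the level of Runx2 is uncertain, so are the RUNX shares and the RUNX sum, and which gene made up most of the rest. With merged exon lengths, Runx1 was the largest RUNX share in each of the 6 libraries. With the longest transcript as length, Runx3 had a larger share than Runx1 in Scl-/- replicate 3. Summed RUNX RNA was 13.7 ± 2.14 CPM/kb in WT and 3.898 ± 1.41 CPM/kb in Scl-/- cells (SD, n = 3). Cbfb stood 4.32- to 6.14-fold above the summed RUNX level in WT and 11.5- to 21.1-fold above it in Scl-/- libraries.

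With merged exon lengths, the leading ETO gene differed between genotypes. In WT replicate 2 the lead depended on the length used, as Cbfa2t2 stood above Cbfa2t3 there with coding length. Cbfa2t3 was 75.8%, 56.5% and 79.8% of the summed ETO CPM/kb in WT replicates 1 to 3 and 6.51%, 4.36% and 5.58% in Scl-/- replicates 1 to 3. Cbfa2t2 was 17.9% to 38.3% in WT and 88.9% to 92.2% in Scl-/- libraries, while its own level was 7.05 CPM/kb in each group. Summed ETO RNA was 29.0 ± 7.34 CPM/kb in WT and 7.803 ± 1.04 CPM/kb in Scl-/- cells (SD, n = 3). These shares are descriptions and no test was run on them.

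**Figure D3:**
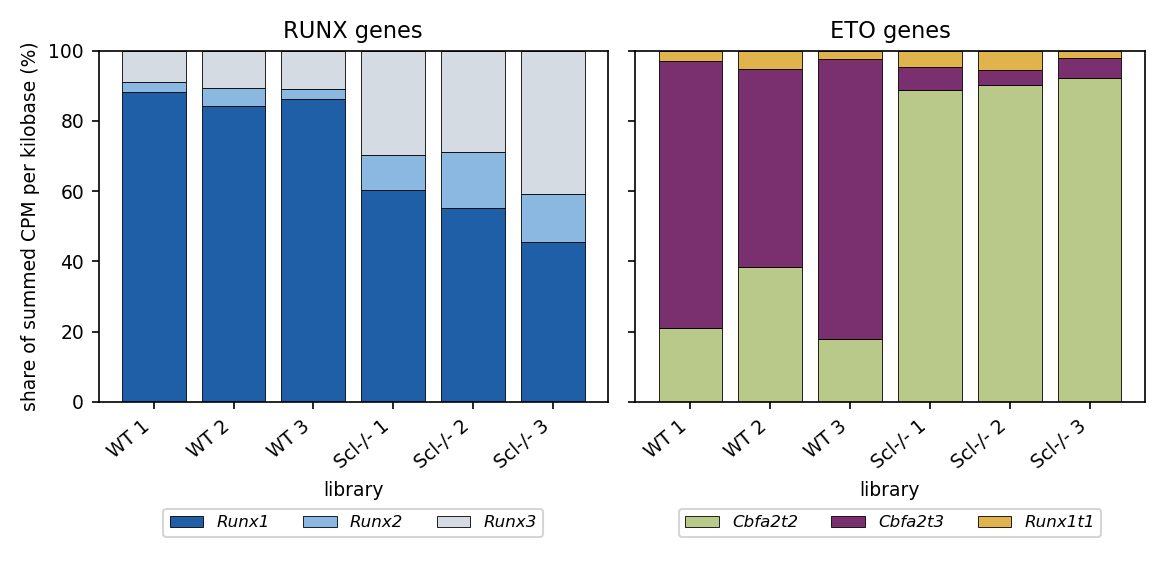
Share (%) of each member in the summed CPM per kilobase of the RUNX genes (left) and the ETO genes (right), with 1 bar for each library. Runx2 enters without its second gene model. Runx1 is 84.4% to 88.2% of the RUNX bars in WT and 45.4% to 60.5% in Scl-/- libraries, and Cbfa2t3 is 56.5% to 79.8% and 4.36% to 6.51% of the ETO bars.

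The genes whose profiles over the 6 libraries were most like each member were found by the root mean square difference (RMSD) of centred log2(CPM + 0.5) values, over 13953 genes that averaged 1 CPM or more. The gene nearest to Cbfa2t3 was Tal1, the targeted gene, with an RMSD of 0.18 on the log2 scale against a spread of 2.65 of Cbfa2t3 around its own mean. Most of that spread lies between the genotypes, so this nearness largely restates similar log2FCs, -5.14 for Tal1 and -5.25 for Cbfa2t3. Next were Slc32a1, a vesicular transporter of inhibitory neurotransmitters, at 0.33 and the growth factor gene Igf1 at 0.50. In Scl-/- libraries Slc32a1 had 0.082 to 0.218 CPM and Igf1 0.041 to 0.181 CPM. These levels are under the added 0.5 CPM, so the distances of both genes rest in part on that setting. Nearest to Runx1 were the adaptor gene Skap1 at 0.18, the long non-coding RNA gene Gm16801 at 0.29 and Morc4 at 0.31, where the spread of Runx1 was 1.32. Runx1t1 had no profile as near in proportion, as its nearest genes, Zfhx4, Myo15 and Nrg1, stood at 0.34, 0.36 and 0.37 against a spread of 0.86. The nearest genes of the other members, none of them called, were Fam107b, Ptp4a2 and Sp9 for Runx2, Ecm1, Tmem136 and Ccdc102a for Runx3, Usp7, Med6 and Col4a3bp for Cbfb, and Gyk, Suco and Cdk19 for Cbfa2t2, with RMSDs from 0.020 to 0.047.

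Gm16801 (ENSMUSG00000086934) lies within Runx1, on the opposite strand, from 92613059 to 92620350 of chromosome 16. It had 6.95, 4.26 and 6.799 CPM in WT against 1.68, 0.87 and 0.75 CPM over Scl-/- replicates 1 to 3, with a log2FC of -2.04 (SE 0.29, limma adjusted p = 0.0157). It shares 106 of its 796 exonic bases with Runx1 exons, and whether counting used strand is not given in the sources used here, so reads of Runx1 and Gm16801 there cannot be told apart. Of the nearest 2 tested genes on each side of each member, 28 in all, 2 were called without the block, both beside Runx1: Gm16801 and Clic6, a chloride intracellular channel gene, with a log2FC of -2.59 (limma adjusted p = 0.00249). These 2 of 28 stand beside 2.36% of all tested genes called without the block. With the block Setd4, also beside Runx1, was called at a higher level in Scl-/- cells, with a log2FC of 0.51 (limma adjusted p = 0.0744, blocked 0.00702). The 4 neighbours of Cbfa2t3 had log2FCs from -0.29 to 0.05 and were called in neither fit. Gm20388, which spans Cbfa2t3 on the opposite strand, shares 0 exonic bases with it and had 6258 to 7439 CPM, with a log2FC of -0.13 (limma adjusted p = 0.643).

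Around the RUNX proteins, genes known as RUNX1 targets in blood were represented by 7 of 13 listed genes, of which 6 had lower and 1 a higher level in Scl-/- cells (median log2FC -1.59). Without the block 3 were called, all lower, and with it 6, all lower. These counts and those of the lists and markers below stand beside 2.36% of all tested genes called without the block and 12.6% with it. The fallen genes were Gfi1b, a transcriptional repressor required for erythroid and megakaryocytic development, at a log2FC of -3.52 (limma adjusted p = 0.00948), Itga2b, the CD41 integrin of early blood progenitors, at -2.84 (limma adjusted p = 0.00857), and Spi1, which encodes PU.1, at -1.81 (limma adjusted p = 0.0164). Spi1 had 2.90 to 4.83 CPM in WT and 0.44 to 0.90 CPM in Scl-/- libraries. In Scl-/- libraries Gfi1b had 0.048 to 0.102 CPM and Gfi1, also on this list, 0.068 to 0.225 CPM. Both passed the filter of 0.5 CPM through the WT libraries alone, so they could enter the counts and the median only as lower. Csf1r, the macrophage growth factor receptor, was the 1 gene with a higher level, at 0.41 (limma adjusted p = 0.225, or 0.0491 with the block). Of 8 listed RUNX2 targets in bone, Col1a1 (0.49) and Alpl (-0.12) had a row and neither was called.

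Of 9 genes listed as upstream regulators of Runx1, 5 fell and 1 rose without the block, and 6 fell and 1 rose with it, with a median log2FC of -1.53. The falls with the largest sizes were those of Myb (-3.86), required for definitive haematopoiesis, and of the ETS factor genes Erg (-3.11) and Fli1 (-3.09), followed by Gata2 (-2.23). Etv2, the ETS factor that acts earliest in haemato-endothelial mesoderm, rose from 127 ± 11.8 to 217 ± 20.7 CPM (SD, n = 3), at a log2FC of 0.78 (SE 0.11, limma adjusted p = 0.0175, blocked 1.3e-04). Among 14 RUNX cofactors and modifiers, the median was -0.03, none was called without the block, and Aes (-0.73) and Hipk2 (-0.64) were called lower with it. These 2 of 14 are near the share of 12.6% of all tested genes called with the block. The cofactor list includes Ep300, Crebbp, Kat6a and the Groucho genes Tle1 to Tle4.

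Around the ETO proteins, the 10 corepressor genes that they recruit had log2FCs between -0.13 and 0.18 and a median of -0.03, and none was called in either fit. The largest absolute value was that of Gps2, an NCOR complex subunit, at 0.18 (limma adjusted p = 0.599), and Ncor1, Sin3a, Sin3b, Hdac1, Hdac2 and Hdac3 lay within that range. Of 12 SCL complex partners of ETO2, 3 fell without the block and 4 with it, with a median of -0.23. The falls were those of Gata1 (-3.28), Lyl1 (-2.69), a close relative of SCL, and Gata2 (-2.23, also listed as an upstream regulator, like Lmo2), and Lmo2 (-0.50) was called lower with the block. Gata1 had 0.145 to 0.225 CPM in Scl-/- libraries and passed the filter through the WT libraries alone, so it could enter only as lower. Ldb1 (-0.11), Tcf3 (-0.07) and Ssbp3 (-0.04) were called in neither fit. Of the 82 different genes in the lists other than the members, with Tal1, Kdr and the markers included and each gene counted once, 16 were called without the block, 39 with it, 2 without WT replicate 1 and 7 without WT replicate 3.

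**Figure D4:**
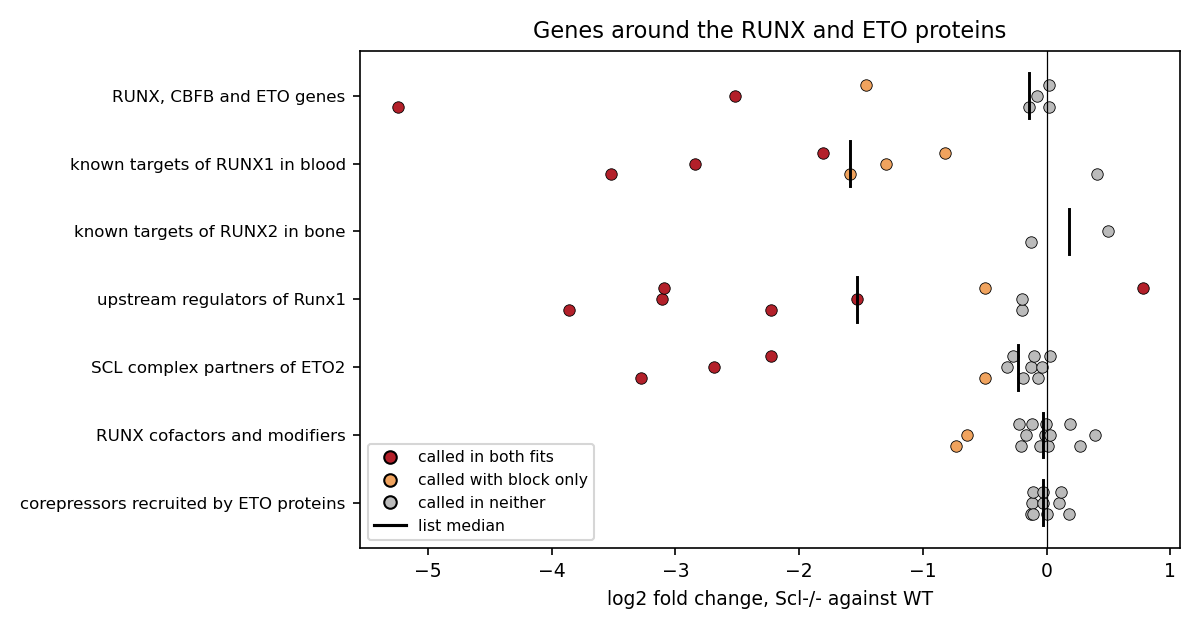
Log2 fold change (Scl-/- against WT) of each tested gene of 7 lists, coloured by whether it was called in both fits, with the replicate block only or in neither, with a bar at each list's median. RUNX1 targets and upstream regulators have medians of -1.59 and -1.53, and the corepressors recruited by ETO proteins lie between -0.13 and 0.18.

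Markers of mesoderm and of other cell types also differed between genotypes. All 5 tested of 6 endothelial markers were lower in Scl-/- cells (2 called, 5 with the block), with summed levels of 116.8 to 302 CPM in WT and 15.98 to 57.1 CPM in Scl-/- libraries, among them Tie1 (-3.64) and Cdh5 (-3.13). All 3 tested of 7 erythroid markers were lower (1 called, 3 with the block), with sums of 16.4 to 30.7 and 12.3 to 12.9 CPM. The embryonic globin gene Hbb-bh1 had 0 reads in each Scl-/- library, where 3 reads are at most 0.0725 CPM. It passed the filter through the WT libraries alone, so it could enter only as lower. Of 8 markers of mesoderm, 5 were higher and 3 lower, with 1 called (Mixl1, 1.04) and 5 with the block, all higher, and sums of 2034 to 2364 and 2443 to 3045 CPM. Pluripotency markers summed to 92.4 to 160 and 95.2 to 236 CPM (0 of 6 called, 1 lower and 3 higher with the block). Those called higher with the block were Nanog (0.82), Dppa5a (0.62) and Pou5f1 (0.56). Esrrb (-0.91), called lower with it, had the largest absolute change of the 6, at means of 2.75 CPM in WT and 1.28 CPM in Scl-/- cells. Of the cardiac markers, 3 of 6 were tested, with sums of 9.28 to 16.3 and 19.3 to 37.1 CPM, Myl7 (1.83) the largest change, and 2 called higher with the block only. For endoderm 2 of 6 were tested, with sums of 8.34 to 22.4 and 3.12 to 8.44 CPM. They went opposite ways, as Sox17 (-2.10) was called lower with the block only and Cer1 (0.85) was called in neither fit. The authors list Sox17 among genes required for endothelial development, so its fall is not specific to endoderm. For neuroectoderm 2 of 5 were tested, with sums of 17.7 to 42.3 and 20.004 to 61.6 CPM. Otx2 (1.23) was called higher with the block only, and Pax6 (0.05) was called in neither fit. Otx2 ranged from 3.71 to 26.9 CPM within the WT libraries. The part of these cell types in the levels of Runx1, Cbfa2t3 and Runx1t1 was not tested.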

How the data were processed

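RNA-seq of FLK1+ EB cells from 3 WT and 3 Scl-/- libraries was used. The authors aligned reads to mm9 with TopHat2 2.0.8b, removed duplicate read pairs, kept mapping qualities above 15 with SAMtools 0.1.19, normalized by edgeR's TMM method and deposited CPM values. Duplicate removal can limit the levels of abundant genes. The counting tool, annotation and strandedness are not given in the sources used here. The members and lists were chosen with earlier results of these data known.

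All CPM values were whole multiples of 1 step per library (within 0.02 of a read), which gave the reads behind each value. No count model was run. Genes with 0.5 CPM or more in 3 libraries (13991) were fitted on log2(CPM + 0.5) with limma 3.58.1 (R 4.3.3; lmFit, eBayes with a trend), with condition as the term, and p-values were adjusted by Benjamini-Hochberg over all genes tested. The fit was tested on simulated data. Same-numbered libraries deviated together from their group means (correlations across genes of 0.59, 0.76 and 0.75, against -0.62 to -0.10 for other pairs), so values with a replicate block are given. Positions and lengths come from GENCODE vM1 on NCBIM37 (mm9), and promoters from RefSeq (GRCm38.p6), matched exactly to mm9. Ratios were compared by exact permutation in Python 3.11.15 with SciPy 1.17.1. Named were all members, Tal1, Kdr, the called genes of each list (at most 4, by size of change, or the largest change where none was called), the 3 nearest profiles of each member and called neighbours. Etv2, Csf1r, Gfi1, Alpl, Gm20388 and the cofactors, corepressors, SCL partners and markers named beyond this were chosen after their values were seen. Some single genes of the lists and neighbours are not reported here. Alternatives were pseudocounts of 0.1 and 1, no filter or a 2 CPM mean, the replicate block, leaving out single libraries, rescaling by median ratios, no trend, no fold-change threshold and other gene lengths.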

Additional observations from a re-analysis of the deposited data

How the results depend on the processing

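The direction and call of Cbfa2t3 held in each of the 14 alternatives (log2 fold change from -5.60 to -4.99), and those of Runx1 in 12 of 14. Without WT replicate 1 and without WT replicate 3 Runx1 missed the threshold, at -2.39 and -2.51, within a range of -2.88 to -2.24 over the libraries left out. Runx1t1 was called in 1 of 14 alternatives, with the replicate block (-1.46), and ranged from -1.76 to -1.08 over the libraries left out. Uncalled changes turned in sign when a library was left out: Runx2 to -0.10 without WT replicate 3, -0.06 without Scl-/- replicate 1 and -0.01 without Scl-/- replicate 2 (range -0.10 to 0.14), Runx3 to 0.042 without Scl-/- replicate 2 (range -0.34 to 0.04), and Cbfa2t2 to -0.18 without WT replicate 3 and -0.08 without Scl-/- replicate 2 (range -0.18 to 0.14). Over all genes, 330 were called, 1768 with the replicate block and 34 to 384 with a library left out (34 without WT replicate 1, 88 without WT replicate 3, 129 without Scl-/- replicate 2 and 162 without Scl-/- replicate 3). Members called ranged from 1 to 2 and called genes of the other lists, each counted once, from 2 to 17 over the libraries left out, with 39 under the replicate block. The blocked fit changed no other member's call. The mean family share of Runx1 with the longest transcript as length was 84.1% in WT and 49.3% in Scl-/- cells, against 86.3% and 53.7% with merged exons. The mean share of Cbfa2t3 with coding length was 61.3% in WT and 3.61% in Scl-/- cells, against 70.7% and 5.48% with merged exons. The cause of these shifts was not tested. The low members, Runx2, Runx3 and Runx1t1, rest on 53 to 400 reads a library, and intervals cover 3 libraries a group.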
